A study of Mus musculus with 8 samples.

Results

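The EGF receptor family and its ligands were examined in RNA-seq data of mouse pancreas as a set of 9 genes: the receptors Egfr, Erbb2 and Erbb3 and the ligands Egf, Tgfa, Hbegf, Areg, Btc and Ereg. The genes were chosen by name as the receptors and ligands of this signalling system, and the rule used no measured value, although earlier results of these data were known when the family was picked. The table analysed held values for 7 of them among 21434 genes, and Areg and Ereg were not analysed here. Of the 7 genes, 6 were among the 12820 genes that passed the filter on low counts and were tested, and Btc was not.

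The data comprise 8 libraries of pancreatic tissue from untreated mice aged 18 weeks, 4 Bach2KO and 4 Bach2WT. Bach2KO mice were homozygous for the allele Bach2tm1b(EUCOMM)Wtsi on the C57BL/6N background, a constitutive knockout of the whole body, and Bach2WT mice of the same strain carried the wild type gene. Mice 1 and 2 of each genotype were females and mice 3 and 4 were males, and each library came from 1 mouse. Bach2 encodes a transcriptional repressor best known from lymphocytes, and the comparison addresses how its loss affects the pancreas.

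EGF family ligands are made as membrane-anchored precursors that proteases, the sheddases, release from the cell surface. A ligand binds EGFR, which then pairs with another EGFR or with ERBB2 or ERBB3 and signals through adaptor proteins, RAS and the MAPK cascade and through PI3K. ERBB2 has no known ligand of its own, and ERBB3 binds neuregulins and has very weak kinase activity. In the pancreas this system is known for its part in duct formation, in the conversion of acinar to duct-like cells after injury and in the growth of tumours, where TGF-alpha is a classical driver.

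The libraries held 72299745 to 172029360 counts on genes. Bach2 itself had 16, 3, 12 and 14 counts in Bach2KO 1 to 4 and 4, 4, 31 and 6 counts in Bach2WT 1 to 4 (0.0915 ± 0.0515 against 0.0943 ± 0.0845 CPM, mean ± SD, n = 4 each), and did not pass the filter. The table gives no exons, so reads from outside the deleted part cannot be told apart, and this count does not check the genotype labels. The sex labels matched the counts of Xist and Ddx3y in all 8 libraries. Acinar markers, which define the bulk of the tissue, summed to between 437303 and 633856 CPM, so that the tissue label was met. The library Bach2KO 3 stood apart from the rest on the first principal component, at 101.8 against −34.8 to 7.2 in the other 7 libraries, and results that rest on it are given with and without it. In bulk tissue, fewer cells of a type and less RNA per cell cannot be told apart. The labels do not say whether other features of handling were shared between mice, so p-values measure the spread between these mice.

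The ligands share a fold that defines the family. Its coding sequence is shown for Egf, Tgfa and Btc because the family was chosen by this relation, and that of Hbegf is not shown. The EGF-like domain holds 6 cysteines that pair into disulfide bridges and gives each ligand its grip on the receptor. Below, the codons of these 6 cysteines are in capitals and the sequences run 5′ to 3′. They were read from reference transcripts (GENCODE M21, build GRCm38) and not from the mice of the study. In each of the 3 genes the stretch spans a pair of exons: exons 20 and 21 of Egf on the minus strand (chr3:129686322-129690850), exons 3 and 4 of Tgfa on the plus strand (chr6:86263200-86269960) and exons 3 and 4 of Btc on the minus strand (chr5:91362421-91366197).
Egf: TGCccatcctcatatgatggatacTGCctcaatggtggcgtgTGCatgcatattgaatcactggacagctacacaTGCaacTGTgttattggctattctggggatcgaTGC
Tgfa: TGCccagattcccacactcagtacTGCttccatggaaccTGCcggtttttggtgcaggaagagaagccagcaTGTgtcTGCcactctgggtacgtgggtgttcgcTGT
Btc: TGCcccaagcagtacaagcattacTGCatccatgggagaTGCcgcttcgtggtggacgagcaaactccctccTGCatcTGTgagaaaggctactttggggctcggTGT

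The spacing of the capitals was nearly the same in the 3 ligands, as the search that located the stretches largely required. That search fixed gaps of 7, 1 and 8 codons and limited the other gaps to a narrow range. Between successive cysteine codons lay 7, 4, 10, 1 and 8 codons in both Tgfa and Btc, and 7, 5, 10, 1 and 8 codons in Egf. The stretches of Tgfa and Btc, both 108 bases long, were identical at 67 positions (62.0%), and that of Egf was 111 bases long.

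Levels between genes were compared as FPKM, the authors' counts per kilobase of gene on a scale common to all libraries. Egf was by far the most abundant member in the pancreas, at a mean of 1.42 FPKM over the 8 libraries (range 0.966 to 2.00), above 89.5% of all genes in the table. The receptors followed at a lower level, with Erbb2 at 0.199 FPKM (range 0.0959 to 0.265), Egfr at 0.161 FPKM (range 0.0870 to 0.232) and Erbb3 at 0.153 FPKM (range 0.0848 to 0.315). The other ligands were lower still, with Tgfa at 0.0677 FPKM (range 0.0220 to 0.164), Hbegf at 0.0451 FPKM (range 0.00449 to 0.109) and Btc at 0.0132 FPKM (range 0 to 0.0345).

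**Figure D1:**
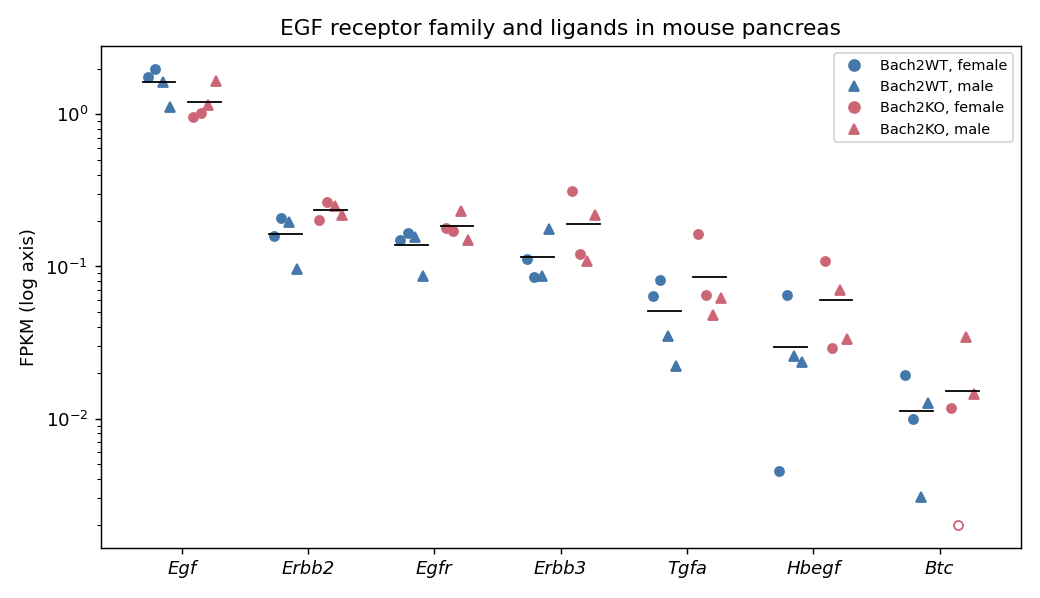
FPKM of the 7 members with values (log axis), 1 point per mouse, circles for females and triangles for males, with a bar at the mean of each genotype; the open circle marks a library listed at 0. Egf lies above every other member in all 8 libraries, and the receptors lie between Egf and the other ligands in the mean.

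The order of the levels held in most libraries. Egf exceeded Erbb2, Erbb2 exceeded Egfr and Erbb3 exceeded Tgfa in all 8 libraries. Egfr exceeded Erbb3 in 5 of 8 libraries, Tgfa exceeded Hbegf in 6 of 8 and Hbegf exceeded Btc in 7 of 8, so the ranges of these neighbours overlapped. Among the receptors, Erbb2 was the highest in 5 libraries, Erbb3 in 3 libraries (Bach2KO 1, Bach2KO 4 and Bach2WT 4) and Egfr in none. Egf made up 77.2% to 96.2% of the summed FPKM of the 4 ligands with values, with the lowest share in Bach2KO 1, the library in which Tgfa and Hbegf were highest.

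Erbb2, the receptor without a ligand of its own (ENSMUSG00000062312, chromosome 11 of GRCm39 from 98303296 to 98328542), had 1.11, 1.43, 1.32 and 1.17 CPM (counts scaled to a common library size after TMM normalization) in Bach2KO 1 to 4 and 0.844, 1.10, 1.02 and 0.504 CPM in Bach2WT 1 to 4. All 4 Bach2KO values lay above all 4 Bach2WT values, although the gap between the nearest mice was small, 1.11 against 1.10 CPM. The means were 1.25 ± 0.145 and 0.867 ± 0.265 CPM (mean ± SD, n = 4 each). The log2 fold change was 0.52 (SE 0.31, 95% interval −0.14 to 1.19) and did not pass the test (edgeR quasi-likelihood, Benjamini-Hochberg adjusted p = 0.768). Erbb2 was the 1 gene among the 6 tested members without overlap between the genotypes, where 2.57% of all genes tested lay wholly higher in Bach2KO mice. On the FPKM scale, which rests on other size factors, Bach2KO 1 (0.201 FPKM) lay below Bach2WT 2 (0.207 FPKM), so the separation depended on the normalization.

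Egfr, the receptor that binds all ligands listed here (ENSMUSG00000020122, chromosome 11 from 16702203 to 16868158), had 2.15, 2.00, 2.67 and 1.74 CPM in Bach2KO 1 to 4 and 1.72, 1.91, 1.78 and 0.994 CPM in Bach2WT 1 to 4. The groups overlapped, with Bach2KO 3 highest and Bach2WT 4 lowest. Means were 2.14 ± 0.390 and 1.60 ± 0.414 CPM, and the log2 fold change of 0.41 (SE 0.26, 95% interval −0.15 to 0.98) did not pass the test (edgeR, adjusted p = 0.788). Without Bach2KO 3, the log2 fold change of Egfr was 0.27 (adjusted p = 0.857).

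Erbb3, the partner receptor that couples to PI3K (ENSMUSG00000018166, chromosome 10 from 128403392 to 128425521), varied more between mice than the other receptors. Its values were 2.00, 0.749, 0.661 and 1.35 CPM in Bach2KO 1 to 4 and 0.689, 0.518, 0.529 and 1.07 CPM in Bach2WT 1 to 4. Bach2KO 1 and 4 stood above every Bach2WT mouse, and Bach2KO 2 and 3 lay within the Bach2WT range. Means were 1.19 ± 0.619 and 0.700 ± 0.256 CPM, with a log2 fold change of 0.78 (SE 0.41, 95% interval −0.10 to 1.66; edgeR, adjusted p = 0.719). Without Bach2KO 3 the log2 fold change was 0.96 (edgeR, adjusted p = 0.577), with an unadjusted p under 0.05, whereas without Bach2KO 1 it was 0.41 (adjusted p = 0.981). Over all fits without 1 mouse it ranged from 0.41 to 1.05.

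Egf, the ligand that gave the family its name (ENSMUSG00000028017, chromosome 3 from 129471214 to 129548965), had its lower mean in Bach2KO mice, unlike the receptors. It had 11.5, 12.0, 13.3 and 19.2 CPM in Bach2KO 1 to 4 and 20.4, 22.9, 18.5 and 12.8 CPM in Bach2WT 1 to 4. Of the Bach2KO mice, 1 to 3 lay below Bach2WT 1 to 3, while the males numbered 4 were at the opposite ends. Means were 14.0 ± 3.57 and 18.6 ± 4.29 CPM, and the log2 fold change of −0.41 (SE 0.21, 95% interval −0.87 to 0.05) did not pass the test (edgeR, adjusted p = 0.718). Without Bach2KO 4 the value was −0.61 (edgeR, adjusted p = 0.553) and without Bach2WT 4 it was −0.56 (adjusted p = 0.771), both with an unadjusted p under 0.05.

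Tgfa, the ligand encoding TGF-alpha (ENSMUSG00000029999, chromosome 6 from 86172205 to 86252701), had 1.12, 0.435, 0.317 and 0.409 CPM in Bach2KO 1 to 4 and 0.422, 0.541, 0.230 and 0.144 CPM in Bach2WT 1 to 4. Bach2KO 1 was far above all other mice, and the remaining Bach2KO values lay inside the Bach2WT range. The log2 fold change was 0.77 (SE 0.55, 95% interval −0.42 to 1.97; edgeR, adjusted p = 0.815), and without Bach2KO 1 it was 0.21 (adjusted p = 0.988).

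Hbegf, a heparin-binding ligand (ENSMUSG00000024486, chromosome 18 from 36637980 to 36648858), was counted only 2 to 90 times per library. It had 0.556, 0.145, 0.343 and 0.166 CPM in Bach2KO 1 to 4 and 0.0222, 0.320, 0.125 and 0.115 CPM in Bach2WT 1 to 4. The groups overlapped, with Bach2KO 1 the highest and Bach2WT 1, at 2 counts, the lowest. The log2 fold change of 1.03 (SE 0.79, 95% interval −0.68 to 2.75) was the widest in its interval among the members and did not pass the test (edgeR, adjusted p = 0.83). It was 0.56 without Bach2KO 1 and 1.77 without Bach2WT 2. Btc, the ligand betacellulin (ENSMUSG00000082361, chromosome 5 from 91505120 to 91550853), reached 9, 0, 12 and 13 counts in Bach2KO 1 to 4 and 8, 6, 2 and 4 counts in Bach2WT 1 to 4. At 0.0704 ± 0.0657 and 0.0515 ± 0.0310 CPM, a difference between the genotypes was not detectable at this depth (two-sided exact permutation test, p = 0.686, where 0.0286 is the smallest possible p), and a count of 0 in Bach2KO 2 allows up to 0.0362 CPM (3 counts, counting error only).

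Across the 6 tested members, 0 passed the genotype test at an adjusted p under 0.05, where 0.00780% of all genes tested (1 gene) did so. At an unadjusted p under 0.05, 0 members were higher, where 3.90% of all genes were, and 0 were lower, where 3.56% were. DESeq2 and limma on log2 FPKM likewise called 0 of the 6 at either threshold. The log2 fold change was above 0 for 5 of 6 members with a median of 0.65, while over all genes tested it was above 0 for 54.7% with a median of 0.048. The 95% intervals of the 6 members all included 0 and leave room for differences in either direction.

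**Figure D2:**
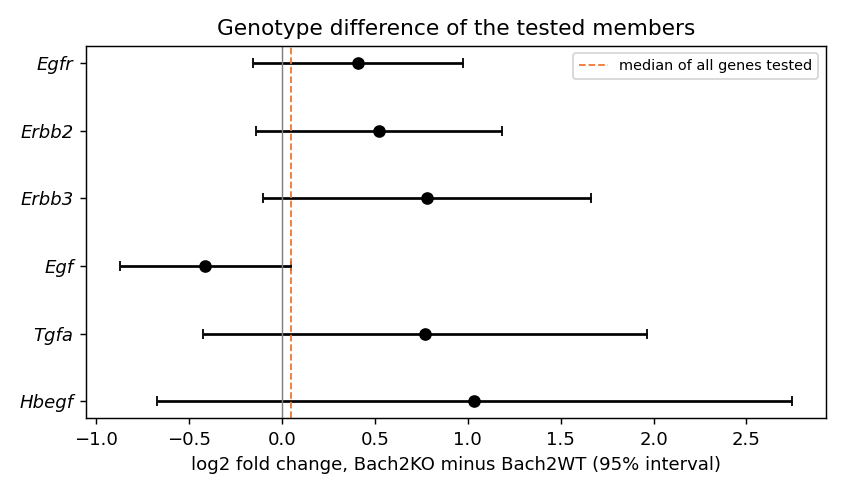
Log2 fold change of the 6 tested members, Bach2KO minus Bach2WT, with 95% intervals from edgeR (n = 4 mice per genotype); the grey line marks 0 and the dashed line the median of all genes tested (0.048). The 3 receptors, Tgfa and Hbegf lie above 0 and Egf lies below it, and every interval includes 0.

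The mean of Egf lay lower and the means of the receptors lay higher in Bach2KO mice, so their proportion was looked at too. The summed FPKM of Egfr, Erbb2 and Erbb3 was 0.696, 0.556, 0.589 and 0.588 in Bach2KO 1 to 4 and 0.419, 0.458, 0.438 and 0.358 in Bach2WT 1 to 4. The lowest Bach2KO sum lay above the highest Bach2WT sum. The ratio of Egf FPKM to this sum was 1.39, 1.85, 1.97 and 2.84 in Bach2KO 1 to 4 (2.01 ± 0.605) and 4.22, 4.36, 3.71 and 3.14 in Bach2WT 1 to 4 (3.86 ± 0.554), again without overlap. Both quantities were formed after the members' values had been seen and are descriptions without a test. Of the 12820 single genes tested, 329 lay wholly higher and 246 wholly lower in Bach2KO mice by CPM. The share of such sums and ratios that separate the genotypes was not counted.

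The members did not vary together as a block. Over the 8 libraries, Pearson's r of log2 CPM was 0.90 between Egfr and Erbb2. Both had their lowest value in Bach2WT 4 (0.994 and 0.504 CPM), and r without that library was not computed. In every other pair of the 6 tested members r was at most 0.60, with −0.51 between Egf and Erbb3. Genes whose pattern was most like that of a member were Itpa for Egfr (r = 0.98, Spearman's rho 0.88), Tmem171 for Erbb2 (r = 0.97, rho 0.93), Klk1b26 for Erbb3 (r = 0.94, rho 0.86), Map2k3os for Egf (r = 0.95, rho 0.81), Epha2 for Tgfa (r = 0.96, rho 0.90) and Prim1 for Hbegf (r = 0.97, rho 0.98). Next in order came Fam124a and 4933434E20Rik for Egfr, Rbpj and Asap1 for Erbb2, Relch and Ing5 for Erbb3, Ybx1 and Cldn10 for Egf, Snx27 and Ddx21 for Tgfa, and A630066F11Rik and Amotl1 for Hbegf. These genes were picked as the highest of 12820 over 8 points that share genotype, sex and depth, and Map2k3os is an antisense gene whose reads cannot be told from those of its partner unless strand was used in counting.

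Each genotype held both sexes, so males and females could be compared with genotype in the model. Tgfa had lower values in males, with means of 0.780 CPM in female and 0.363 CPM in male Bach2KO mice and 0.482 and 0.187 CPM in Bach2WT mice. Every male value was below every female value (0.144 to 0.409 against 0.422 to 1.12 CPM), although the nearest mice were close. The share of all genes that separate the sexes in this way was not counted. The log2 difference of −1.22 (SE 0.47) had an unadjusted p under 0.05 and did not pass the adjustment over all genes (edgeR, adjusted p = 0.890). Without Bach2KO 1 it was −0.93, and its unadjusted p was over 0.05 without Bach2KO 1, without Bach2WT 2 and without Bach2WT 4. The other 5 members had unadjusted p-values over 0.05 (adjusted p 0.964 to 0.998). Thus 0 of 6 members passed the adjusted threshold, as did 0.0312% of all genes, and 1 of 6 had an unadjusted p under 0.05, where 5.29% of all genes did.

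The genotype difference of Egf was unequal in the sexes before adjustment. In females, both Bach2KO mice (11.5 and 12.0 CPM) lay below both Bach2WT mice (20.4 and 22.9 CPM), whereas in males the Bach2KO mice (13.3 and 19.2 CPM) and the Bach2WT mice (18.5 and 12.8 CPM) overlapped. Means were 11.7 against 21.6 CPM in females and 16.3 against 15.6 CPM in males (n = 2 each). The interaction of sex and genotype was 0.94 on the log2 scale (SE 0.36), with an unadjusted p under 0.05 that did not pass the adjustment (edgeR, adjusted p = 0.805). It was 0.65 without Bach2KO 4 and 0.70 without Bach2WT 4, and its unadjusted p was over 0.05 without either of these mice, without Bach2KO 1 and without Bach2WT 2. The interaction of the other 5 members had unadjusted p-values over 0.05. At the adjusted threshold 0 of 6 members and 0% of all genes were called, and 1 of 6 members had an unadjusted p under 0.05, where 6.14% of all genes did.

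**Figure D3:**
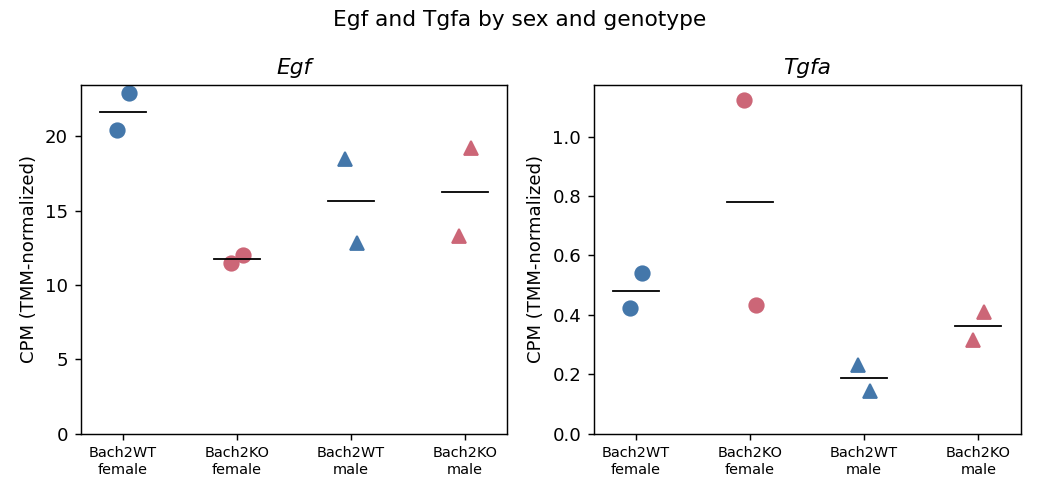
TMM-normalized CPM of Egf (left) and Tgfa (right) by sex and genotype, 1 point per mouse, with a bar at the mean of the 2 mice. The 2 female Bach2KO mice lie below the 2 female Bach2WT mice for Egf, and the 4 males lie below the 4 females for Tgfa, both without passing adjustment.

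Of 6 further receptors and ligands of the family, 3 had values and were near the limit of detection, and Epgn, Nrg1 and Nrg3 were not analysed here. Erbb4, the fourth receptor of the family, had 0 to 13 counts per library. Nrg2, a neuregulin ligand, had 6, 16, 0 and 10 counts in Bach2KO 1 to 4, and Nrg4 had 0, 4, 0 and 6, while both were at 0 counts in the 4 Bach2WT libraries. A count of 0 allows up to 0.0209 to 0.0432 CPM per Bach2WT library, and none of the 3 genes passed the filter on low counts. DESeq2 and the fit without a filter, which took in all 3, called none at an adjusted p under 0.05 and 1, Nrg2, as higher at an unadjusted p under 0.05.

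Genes that act on the ligands and receptors were read from the same fit. The 8 tested genes of ligand release were sheddases, trafficking factors and a sheddase inhibitor. Of them, 0 passed the adjustment and 0 were lower in Bach2KO mice at an unadjusted p under 0.05. At that threshold, 1 was higher in Bach2KO mice. This was Adam8, a metalloprotease of leukocytes, with 0.531, 0.821, 0.132 and 0.171 CPM in Bach2KO 1 to 4 and 0.0222, 0.0762, 0.0418 and 0 CPM in Bach2WT 1 to 4. The lowest Bach2KO mouse lay above the highest Bach2WT mouse, where 2.57% of all genes tested lay wholly higher in Bach2KO mice. The log2 fold change was 3.43 (SE 0.94, edgeR, adjusted p = 0.456). DESeq2 gave an adjusted p of 0.0232 for Adam8, which edgeR's main and leave-one-out fits did not (adjusted p 0.295 to 0.855). The list's median log2 fold change was 0.27, and the count was 2 of 9 tested genes without Bach2KO 3 or without Bach2WT 1.

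Of 13 genes that inhibit or remove the receptors, 1 had an unadjusted p under 0.05 with a higher level in Bach2KO mice, 0 with a lower one, and 0 passed the adjustment (median log2 fold change 0.19). This was Errfi1, which encodes the receptor inhibitor MIG6. Its values were 4.34, 1.11, 9.76 and 1.49 CPM in Bach2KO 1 to 4 and 1.44, 1.04, 1.16 and 0.691 CPM in Bach2WT 1 to 4. Bach2KO 1 and 3 carried the difference, and the other Bach2KO mice were close to the Bach2WT range. The log2 fold change of 1.94 (SE 0.56, edgeR, adjusted p = 0.513) was 1.07 without Bach2KO 3 (adjusted p = 0.551), when 2 genes of the list were higher. In the fit without a filter on low counts, Errfi1 passed the adjustment (adjusted p = 0.0182).

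Of 26 adaptors and kinases of the RAS-MAPK, PI3K and STAT branches, 3 had an unadjusted p under 0.05 with a higher level in Bach2KO mice and 0 with a lower one (median log2 fold change 0.16). They were Nras, a RAS GTPase (log2 fold change 0.80, SE 0.30), Grb2, the adaptor that binds the receptor's phosphotyrosines (0.44, SE 0.19), and Sos1, the exchange factor that loads RAS with GTP (0.92, SE 0.42). Grb2 was the 1 gene of the 26 without overlap between the genotypes, with 3.73 to 5.01 CPM in Bach2KO and 2.69 to 3.51 CPM in Bach2WT mice. Of all genes tested, 2.57% lay wholly higher in Bach2KO mice. In the 8 fits without 1 mouse, the unadjusted p was under 0.05 in 6 for Nras, in 5 for Grb2 and in 2 for Sos1. It was highest without Bach2KO 3 for Nras and Grb2 and without Bach2KO 1 for Sos1. None of the 26 passed the adjustment (edgeR, smallest adjusted p of these 3 genes 0.627), and the count of higher genes was 1 without Bach2KO 3, when 2 were lower, 1 without Bach2WT 3 and 0 without Bach2WT 4.

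Of 7 tested feedback inhibitors of the MAPK cascade, 1 had an unadjusted p under 0.05 with a higher level in Bach2KO mice and 0 with a lower one (median log2 fold change 0.43). This was Spry1, a Sprouty protein, with 1.14, 0.797, 2.23 and 0.632 CPM in Bach2KO 1 to 4 and 0.500, 0.351, 0.703 and 0.734 CPM in Bach2WT 1 to 4 (log2 fold change 1.06, edgeR, adjusted p = 0.636). Bach2KO 3 was the highest, and without it the log2 fold change was 0.56, with an unadjusted p over 0.05. The count was 0 without Bach2KO 3, Bach2WT 1 or Bach2WT 2.

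Early response genes, which are transcribed after receptor activation and after many other stimuli, held the most unadjusted differences. Of 9 tested genes, 5 were higher in Bach2KO mice at an unadjusted p under 0.05 and 0 were lower, 0 passed the adjustment, and the median log2 fold change was 0.60. Without the filter on low counts, Junb (adjusted p = 0.0158) and Egr1 (adjusted p = 0.0256) passed, and 7 of 14 genes were higher at an unadjusted p under 0.05. The subunit Junb of the AP-1 factor had 3.73, 1.24, 9.76 and 0.933 CPM in Bach2KO 1 to 4 and 1.12, 0.709, 0.362 and 1.17 CPM in Bach2WT 1 to 4 (log2 fold change 2.23, edgeR, adjusted p = 0.513). The zinc finger factor Egr1 had 1.87, 0.519, 13.8 and 0.653 CPM in Bach2KO 1 to 4 and 1.18, 0.442, 0.467 and 0.0576 CPM in Bach2WT 1 to 4 (log2 fold change 2.95, edgeR, adjusted p = 0.539). Both were highest in Bach2KO 3, and without that library the log2 fold change was 1.22 for Junb, whose unadjusted p stayed under 0.05, and 0.90 for Egr1, whose unadjusted p did not.

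Jun (log2 fold change 0.97, SE 0.36) and the growth regulator Myc (0.73, SE 0.32) had smaller differences. Their unadjusted p in the main fit was 0.0185 for Jun and 0.0373 for Myc (edgeR). Without Bach2KO 3 it was 0.0592 for Jun and 0.126 for Myc (edgeR), so neither stayed under the unadjusted threshold. Of the 8 fits without 1 mouse, 5 had an unadjusted p under 0.05 for Jun and 4 for Myc. The summed CPM of the early response genes was 47.9 in Bach2KO 3 and 8.44 to 21.6 in the other 7 libraries, and Bach2KO 3 also had the highest summed macrophage (33.7 CPM) and endothelial markers (33.7 CPM) of all 8 libraries and the highest islet markers (2042 CPM) of the Bach2KO mice. The part of these in the early response values was not tested. For the early response list without Bach2KO 3, the count was 1 of 10 tested genes higher and 0 lower. It was 3 without Bach2KO 1 and 2 without Bach2WT 2 or without Bach2WT 4. Across all these lists, the unadjusted counts of the main fit stand beside 3.90% of all genes higher and 3.56% lower. Without the filter on low counts these shares were 4.65% and 2.96%. In fits without 1 mouse they ranged from 3.08% to 5.55% higher and from 2.11% to 4.61% lower.

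**Figure D4:**
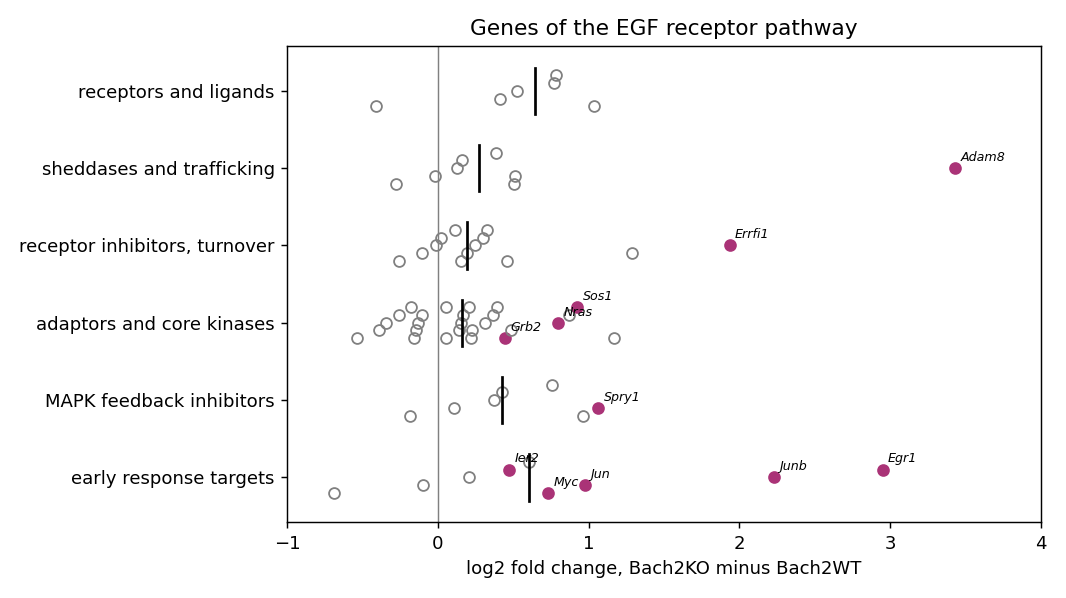
Log2 fold change, Bach2KO minus Bach2WT, of each tested gene of the family and of 5 lists of the pathway (1 point per gene), with a black bar at each list's median; filled, labelled points have an unadjusted p under 0.05. No point passes the adjusted threshold in this edgeR fit, and without Bach2KO 3 the log2 fold change was 1.22 for Junb and 0.90 for Egr1.

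Markers of the cell types that pancreatic tissue can hold were read in the same way, and their part in the members' values was not tested. Counts of marker genes at an unadjusted p under 0.05 stand beside the same shares, 3.90% of all genes higher and 3.56% lower in the main fit. Of the marker genes that passed the filter, 0 also passed the adjustment in edgeR. Marker genes named below for a call under another setting were picked after their values were seen. Of 12 acinar markers, 3 were lower, and their sum ranged from 437303 to 489724 CPM in Bach2KO and from 471185 to 633856 CPM in Bach2WT mice. DESeq2 called the acinar marker Cpa1 as lower (adjusted p = 0.0457). Duct markers summed to 186 to 260 and 227 to 265 CPM with 2 of 9 tested genes higher, a count that was 0 without Bach2KO 3 or Bach2WT 2 and 1 without Bach2WT 3. Islet markers summed to 231 to 2042 and 186 to 2331 CPM with 1 of 10 higher. That count was 5 without Bach2WT 4, the library with the highest islet sum, 2 without Bach2KO 4, and 0 without Bach2KO 1, Bach2KO 3, Bach2WT 1 or Bach2WT 3.

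Macrophage markers summed to 22.5 to 33.7 and 16 to 29.5 CPM with 2 of 10 higher and 0 lower. DESeq2, RLE factors, halved counts and the fit without a filter each gave 1 macrophage gene lower. Library sizes without the most abundant genes, and a filter of at least 10 counts in every library, each gave 1 lower as well. The fits without Bach2KO 3, Bach2WT 3 or Bach2WT 4 did so too. The higher count was 3 without Bach2WT 3, in the fit without a filter and in both limma fits on log2 FPKM. Endothelial markers summed to 17.0 to 33.7 and 12.6 to 19.1 CPM with 1 of 8 higher, a count that was 3 without Bach2KO 4 and 2 without Bach2KO 2, Bach2WT 1, Bach2WT 2 or Bach2WT 4. T cell and innate lymphoid markers were low, at 1.94 to 5.62 and 0.706 to 3.53 CPM with 0 of 7 tested genes passing, and their sum was highest in Bach2KO 1, the library in which Erbb3, Tgfa and Hbegf were highest too. The count was 2 without Bach2WT 1 and 1 without Bach2WT 4. Il7r, a receptor of lymphoid cells that did not pass the filter, had 0.575, 0.0966, 0.132 and 0.0518 CPM in Bach2KO 1 to 4 and 0 counts in all 4 Bach2WT libraries. It was called as higher in Bach2KO mice by DESeq2 (adjusted p = 0.00377) and by the fit without a filter (adjusted p = 0.0419).

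B cell markers summed to 0.0264 to 1.66 and 0.360 to 3.82 CPM, and mast cell, basophil and eosinophil markers to 0.0264 to 1.06 and 0.0762 to 0.955 CPM, with 0 of 2 tested genes passing in each list. Without Bach2KO 1, 2 B cell genes were lower, and 1 was lower without Bach2WT 4. Fibroblast and stellate cell markers summed to 34.3 to 63.3 and 29.3 to 71.6 CPM with 0 of 10 passing, or 1 higher without Bach2WT 1 or Bach2WT 2. Schwann cell markers summed to 2.75 to 5.43 and 2.82 to 6.84 CPM, adipocyte markers to 2.06 to 6.09 and 0.893 to 11.5 CPM and mesothelial markers to 3.56 to 11.5 and 3.89 to 11.6 CPM. Of these, 1 adipocyte gene was lower, or 2 without Bach2KO 1, Bach2WT 3 or Bach2WT 4, and 1 mesothelial gene was higher. The adipocyte marker Plin1 was called as lower without the filter on low counts (adjusted p = 0.0211). The defining markers Cftr of ducts, Ms4a1 of B cells and Sox10 of Schwann cells were at 0 counts in 4 of 8 libraries each, with libraries of both genotypes among them.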

How the data were processed

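RNA was isolated from homogenized pancreas, enriched for poly(A) RNA and sequenced as paired-end reads. Per the labels, fastp, HISAT2 2.2.1, featureCounts 2.0.6 and the build mm39 were used, and the strand setting is not given in the sources used here. The authors deposited counts per gene and library without normalization, a normalized signal (the counts over 1 factor for each library), FPKM values (the signal per gene length, checked to within 1% for 100% of values) and gene lengths. The deposited log2 fold changes and p-values of the authors' own comparison were not used. Even counts made up 64.7% of counts from 1 to 200, so a fit on halved counts was an alternative.

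Counts were tested with edgeR 4.0.16 (R 4.3.3, quasi-likelihood, TMM, filterByExpr on genotype, Benjamini-Hochberg over 12820 genes, threshold 0.05), without covariates for genotype and with genotype as a covariate for sex. The common dispersion was 0.192. CPM values are TMM-normalized, and log2 CPM used a prior count of 2. The floor of a count of 0 is 3 counts, and it covers counting error only. Alternatives were DESeq2 1.42.0, limma 3.58.1 on log2(FPKM + 1) and log2(FPKM + 0.1), RLE factors, library sizes without the most abundant genes, other filters, sex or the replicate number in the model, and leaving out each mouse. List genes and their counts under these settings were added after seeing the data. The fits were tested on simulated data.

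The members, set by name, and the lists were chosen with earlier results of these data known. Named genes were the members, up to 4 genes per pathway list with an unadjusted p under 0.05, and the 3 genes most like each tested member. The coordinates of genes are those of the deposited table (GRCm39), and the printed sequences were matched by gene to GENCODE M21 transcripts (GRCm38). No 2 libraries agreed within sampling noise.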

Additional observations from a re-analysis of the deposited data

Results flagged for a closer look

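The Tgfa level of Bach2KO 1, 1.12 CPM, lay far from those of the other 3 Bach2KO mice (0.317 to 0.435 CPM): its gap to the nearest mouse exceeded Dixon's 95% limit for 4 samples. It was the only such value among 14 combinations of a gene and a genotype, where chance alone gives about 1 in 20. Without Bach2KO 1, the log2 fold change of Tgfa between the genotypes was 0.21 (SE 0.59, edgeR, adjusted p = 0.988) in place of 0.77.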

How the results depend on the processing

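The genotype difference kept its direction for all 6 tested members in 107 of 107 alternative values, and 0 of them had an adjusted p under 0.05. Without 1 mouse, these log2 fold changes ranged from 0.24 to 0.51 for Egfr, 0.34 to 0.66 for Erbb2, 0.41 to 1.05 for Erbb3, −0.61 to −0.30 for Egf, 0.21 to 1.11 for Tgfa and 0.56 to 1.77 for Hbegf. Against 1 gene called between the genotypes, DESeq2 called 80 and the fit without a filter 73, while 0 were called with at least 10 counts in every library, on halved counts, with sex as a covariate, with limma on log2(FPKM + 1), and without any single mouse (0 to 0). With the replicate block, 0 genes were called. The deviations of same-numbered mice had correlations of 0.21, −0.03, −0.04 and −0.05. Bach2WT 1 was the best match of Bach2KO 1, whereas Bach2KO 2, 3 and 4 each matched a mouse of another number best. Whether same-numbered mice shared more than a number was not tested. Against 4 genes called for sex, DESeq2 called 19, the fit without a filter 152, the filter at 10 counts 1, and fits without 1 mouse 2 to 9. For the interaction, these were 18 with DESeq2, 92 without a filter and 0 to 6 without 1 mouse, against 0.

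The sex difference of Egf was 0.0027 and changed sign without the filter (−0.0043), with the filter at 10 counts (−0.0086) and without a genotype term (−0.063). Without 1 mouse, sex differences ranged from −0.20 to 0.20 for Egf, −0.31 to 0.034 for Egfr, −0.36 to 0.013 for Erbb2, −0.35 to 0.41 for Erbb3 and −0.86 to 0.34 for Hbegf. Interactions ranged from −0.10 to 0.92 for Erbb2, −1.45 to 0.039 for Erbb3, −2.87 to 1.32 for Hbegf and −0.28 to 1.09 for Tgfa. The permutation p of Btc lay between 0.286 and 0.857, with the direction reversed without Bach2KO 3. Hbegf was not tested with the filter at 10 counts. Counts of 2 to 90 per library limited Hbegf and counts of 0 to 13 limited Btc. Other causes of these shifts were not tested.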
